A study of Mus musculus with 10 samples.

Results

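A set of 10 genes of mitochondrial fatty acid oxidation is described here in activated T cells with and without KLF13, a zinc-finger transcription factor of the Krüppel-like family. The genes, of 19048 named in both deposited tables, were listed by name for their place in the pathway. They are the carnitine palmitoyltransferase genes Cpt1a, Cpt1c and Cpt2, the acyl-CoA dehydrogenase genes Acadm, Acadl and Acadvl, the trifunctional protein genes Hadha and Hadhb, and the electron transfer flavoprotein genes Etfa and Etfb. Of these, Cpt1c was chosen because it was higher in knockout cells and Etfb because it was lower, so the knockout differences of these 2 genes are given as descriptions with no test. All 10 genes were bright enough to be tested, and all 10 would have passed that filter on the wild-type arrays alone.

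RNA came from CD3+ spleen T cells of male mice of the Balb/C strain aged 12 weeks, either WT or KLF13 KO, after 4 days on coated antibody to CD3 with antibody to CD28 in solution. Affymetrix arrays were run for 5 wild-type and 5 knockout mice, 1 array each, and the labels do not say how the gene was deleted. Values are log2 signals, on which a difference of 1 is a doubling. The arrays form 3 replicate sets that do not share a scale: replicate 1 and replicates 2 and 3 come from a table of exon-level probe sets, and replicates 4 and 5 from a table of gene-level probe sets. Knockout and wild type were therefore compared within each set, and differences over all 10 arrays come from a limma fit with the set as block.

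Long-chain fatty acids enter the mitochondrial matrix as carnitine esters. CPT1 at the outer membrane attaches carnitine, which is the step that malonyl-CoA inhibits, and CPT2 at the inner membrane removes it. Acyl-CoA dehydrogenases then begin each turn of beta-oxidation and pass their electrons to the electron transfer flavoprotein, which hands them on towards the respiratory chain, while the trifunctional protein carries out the remaining steps for long chains. In T cells this pathway is known for its use in memory and regulatory cells, whereas cells freshly driven to divide rely heavily on glycolysis.

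The deleted gene, Klf13, was lower in knockout cells. Its log2 signal was 6.03, 6.95, 6.89, 7.21 and 7.55 in wild-type arrays 1 to 5 and 5.41, 6.16, 6.07, 6.21 and 6.46 in knockout arrays 1 to 5. No knockout array reached a wild-type array of its set. Over the sets Klf13 fell by 0.86 ± 0.12 (log2, SE, 5 arrays against 5; limma, adjusted p = 0.0127), a call that ended without WT2, WT3, WT4, KO4 or KO5 (adjusted p = 0.0507 to 0.0689) and with the table in place of the set as block (adjusted p = 0.9998). KO3 stood apart by its narrower distribution of signals (interquartile range 3.10, where the rest of its table had 3.43 to 3.56). The T cell markers measured (8 of 9 listed) averaged 9.27 to 10.5 per array, and the lists of B cell, myeloid, NK, erythroid, and stromal and endothelial markers averaged 3.54 to 6.14. The T cell list differed by -0.31, -0.79 and -0.03 in the 3 sets and the erythroid list (2 genes) by 0.46, 0.15 and 0.28, and their part in the results below was not tested. In bulk RNA, fewer cells of a type and less RNA per cell cannot be told apart.

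The stretches of DNA upstream of 4 of the genes are shown because KLF factors are known to bind GC boxes and CACCC boxes, and because the pair of chosen genes differ in which of these letters they hold. Each line gives the 250 bases before the gene's start on the gene's strand, from RefSeq (GRCm38.p6), where all 10 genes had an entry. Capitals mark the GC box, GGGCGG, and the CACCC box, each searched on both strands. The windows lie at chr7:44974852-44975101 (Cpt1c, minus strand), chr19:3323051-3323300 (Cpt1a, plus), chr7:43443822-43444071 (Etfb, plus) and chr5:30155003-30155252 (Hadhb, plus).
Cpt1c: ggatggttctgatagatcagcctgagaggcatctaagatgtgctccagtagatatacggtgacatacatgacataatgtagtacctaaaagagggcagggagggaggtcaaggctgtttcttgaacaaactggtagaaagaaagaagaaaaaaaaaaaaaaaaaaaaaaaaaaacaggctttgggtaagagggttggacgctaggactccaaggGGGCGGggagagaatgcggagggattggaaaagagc
Cpt1a: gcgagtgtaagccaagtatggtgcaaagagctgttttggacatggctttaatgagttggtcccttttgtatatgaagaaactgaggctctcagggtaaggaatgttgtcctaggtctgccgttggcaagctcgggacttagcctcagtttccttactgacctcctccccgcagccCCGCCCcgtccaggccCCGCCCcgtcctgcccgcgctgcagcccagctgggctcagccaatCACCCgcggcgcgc
Etfb: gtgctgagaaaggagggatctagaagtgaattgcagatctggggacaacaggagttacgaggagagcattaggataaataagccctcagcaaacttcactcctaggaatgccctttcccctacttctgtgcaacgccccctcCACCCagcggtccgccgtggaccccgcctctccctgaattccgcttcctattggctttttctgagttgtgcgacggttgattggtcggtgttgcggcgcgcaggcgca
Hadhb: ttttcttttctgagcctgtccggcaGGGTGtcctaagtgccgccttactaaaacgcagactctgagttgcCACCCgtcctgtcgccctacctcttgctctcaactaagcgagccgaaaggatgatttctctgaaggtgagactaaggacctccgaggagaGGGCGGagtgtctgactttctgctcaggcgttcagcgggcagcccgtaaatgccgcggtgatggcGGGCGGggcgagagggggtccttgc

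The Cpt1c window held 1 GC box, which began 36 bases before the start, and no CACCC box. The Cpt1a window held 2 GC boxes, both as the reverse complement, and 1 CACCC box. The Etfb window held 1 CACCC box, which began 108 bases before the start, and no GC box. The Cpt2 window, like that of Cpt1c, held GC boxes (2) and no CACCC box, although Cpt2 was lower in knockout cells. The windows of Acadm, Acadvl and Etfa, like that of Etfb, held a CACCC box and no GC box. Whether these letters go with the direction of a difference was not tested. Hadha and Hadhb start 272 bases apart and face away from each other, so the line for Hadhb is also most of the upstream sequence of Hadha (228 of 250 bases), and it held 2 GC boxes and 2 CACCC boxes. The GC box stood in 6 of the 10 windows and in 32.74% of 32851 RefSeq windows of this length. The CACCC box stood in 8 of 10 and in 52.01%, and no base was shared between matches to these motifs. A search of both strands for CCAAT found it in 4 of 10 windows and in 33.85% of all. The element of estrogen-related receptors, AAGGTCA, stood in 1 window (Acadm) and in 4.08% of all. The GC content of all windows had a median of 52.4%. The 10 windows ranged from 44.0% (Cpt1c) to 68.0% (Acadl), and all but those of Cpt1c and Acadvl (49.6%) were above that median. Windows of like GC content were not compared, so nothing is read from these shares. These are matches of letters, and binding was not measured.

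Of the carnitine shuttle genes, Cpt1c was higher in every knockout array than in the wild-type arrays of its set, Cpt2 was lower, and Cpt1a went both ways. CPT1C is the form of CPT1 known from brain, where it sits in the endoplasmic reticulum and has little of the enzyme activity of the other forms. Its log2 signal was 4.53, 5.94, 6.14, 4.73 and 4.91 in wild-type arrays 1 to 5 and 6.47, 7.86, 7.16, 5.59 and 5.74 in knockout arrays 1 to 5. The groups did not overlap in any set, and the knockout differences were 1.94, 1.47 and 0.84 in replicate 1, replicates 2 and 3, and replicates 4 and 5. Over the sets this is 1.31, or 2.48-fold. The spread among arrays of 1 genotype and set was 0.13 in wild-type and 0.36 in knockout cells (pooled SD over replicates 2 to 5). Among all tested genes 0.0961% were called higher in this comparison (0.721% in the gene-level table alone, and 2.10% at an unadjusted p under 0.05), and 1.63% had all knockout arrays above the wild-type arrays in each set. Nothing is read from these shares for a gene chosen on this contrast. Leaving out any 1 array gave 1.16 to 1.41.

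**Figure D1:**
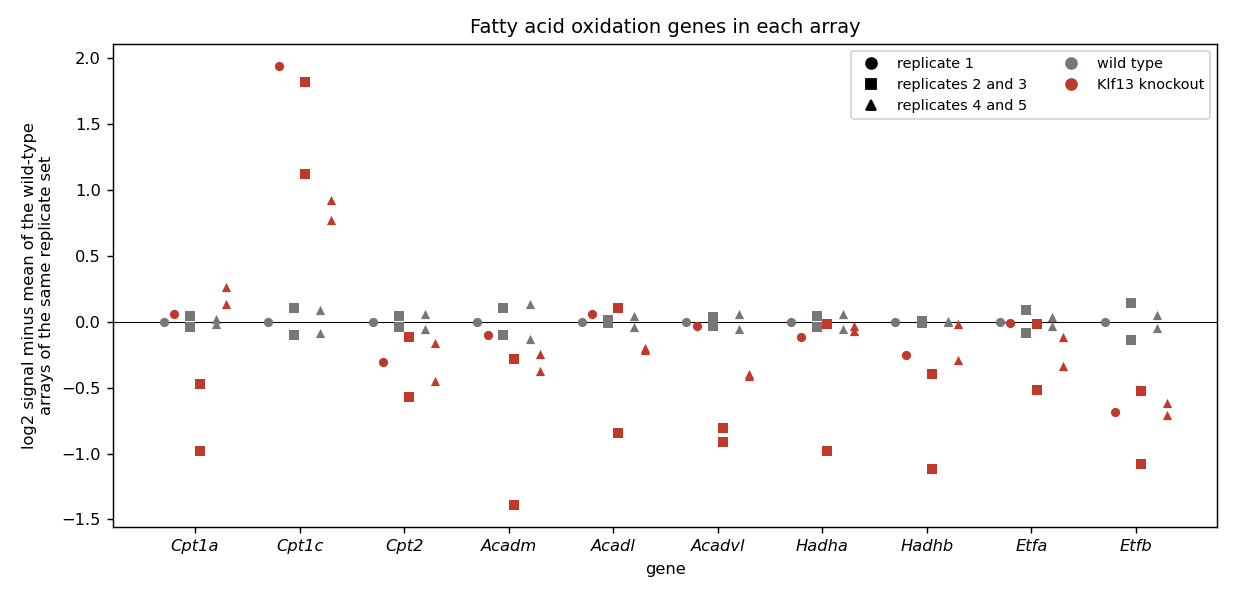
Log2 signal of each of the 10 genes in each array, minus the mean of the wild-type arrays of the same replicate set. Grey is wild type, red is Klf13 knockout, and the marker shape gives the replicate set. The knockout arrays for Cpt1c lie between 0.77 and 1.94, and those for Etfb between -1.08 and -0.53, and KO3 is the lowest knockout array for each of the other 8 genes, down to -1.39 for Acadm.

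The probe sets of Cpt1c moved together along the gene. All 22 exon-level probe sets were above 0 in replicate 1, with a median of 1.94 and a range of 0.01 to 3.82. In replicates 2 and 3, 21 of 22 were above 0 (median 1.34, range -0.37 to 3.34), and for 17 both knockout arrays lay above both wild-type arrays. Probe set 10563000 is an example of a large difference: it read 2.35 in WT1 against 5.87 in KO1, and 3.80 and 4.06 in WT2 and WT3 against 7.60 and 6.93 in KO2 and KO3. The exception in replicates 2 and 3 was probe set 10562992, with 5.17 and 4.22 in wild-type arrays and 5.91 and 2.75 in knockout arrays, where the low value is that of KO3. The 22 probe sets lie on 1 transcript and are not replicates.

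Cpt1a, the CPT1 form of most tissues, showed no common direction. Its log2 signal was 6.65, 8.25, 8.34, 7.62 and 7.59 in wild-type arrays 1 to 5 and 6.71, 7.83, 7.32, 7.87 and 7.74 in knockout arrays 1 to 5. Knockout arrays were higher in replicates 1, 4 and 5 and lower in replicates 2 and 3, with differences of 0.06, -0.72 and 0.20 in the 3 sets. Over the sets the difference was -0.20 ± 0.18 (SE, 5 against 5; limma, adjusted p = 0.544). It was -0.04 without KO3, -0.11 without WT3, -0.13 without WT2, -0.11 after quantile normalization and 0.027 with array weights in the fit. The test of whether the difference itself differed between the tables gave 0.66 (gene-level minus exon-level; limma, adjusted p = 0.872). Of its 19 exon-level probe sets 10 were above 0 in replicate 1, and 17 were below 0 in replicates 2 and 3.

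**Figure D2:**
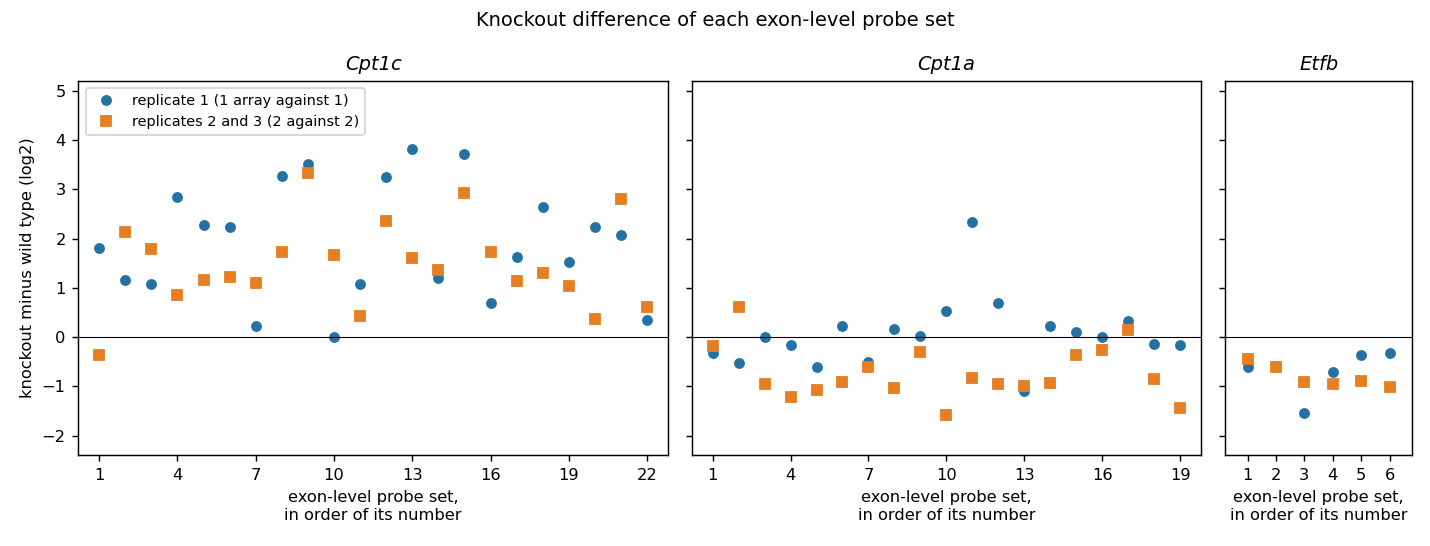
Knockout minus wild type (log2) for each exon-level probe set of Cpt1c, Cpt1a and Etfb, in order of probe set number, in replicate 1 (circles) and replicates 2 and 3 (squares). For Cpt1c 21 of 22 probe sets lie above 0 in both, for Etfb 6 of 6 lie below 0 in both, and for Cpt1a 1 lies above and 8 below in both.

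Cpt2, the inner membrane enzyme that returns the acyl group to CoA, was lower in each set. Its log2 signal was 6.02, 6.84, 6.92, 6.35 and 6.46 in wild-type arrays 1 to 5 and 5.71, 6.76, 6.30, 5.96 and 6.24 in knockout arrays 1 to 5. No knockout array reached a wild-type array of its set, and the 3 set differences were close to each other at -0.31, -0.35 and -0.31. Over the sets the difference was -0.32 ± 0.12 (SE, 5 against 5; limma, adjusted p = 0.278), which did not pass.

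The genes for the acyl-CoA dehydrogenases had values below 0 over the sets, and none passed the test. Acadvl, the dehydrogenase of very long chains, read 7.53, 8.97, 9.03, 7.69 and 7.81 in wild-type arrays 1 to 5 and 7.50, 8.19, 8.09, 7.34 and 7.35 in knockout arrays 1 to 5. The knockout arrays lay below the wild-type arrays in every set, with differences of -0.04, -0.86 and -0.41. Over the sets the difference was -0.51 ± 0.14 (SE, 5 against 5; limma, adjusted p = 0.158), the lowest p among the 8 tested members, and it ranged from adjusted p = 0.0567 to 0.9998 over the alternatives. Its 11 other exon-level probe sets also name Dvl2 and were left out.

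Acadm, the dehydrogenase of medium chains, read 7.93, 9.08, 9.28, 7.96 and 7.70 in wild-type arrays 1 to 5 and 7.83, 8.90, 7.79, 7.46 and 7.59 in knockout arrays 1 to 5. The genotypes did not overlap in any set, but KO3 lay 1.11 below KO2. The difference was -0.48 ± 0.20 (SE, 5 against 5; limma, adjusted p = 0.307). It was -0.25 without KO3 and -0.25 with array weights. Acadl, the dehydrogenase of long chains, was at 0.06, -0.37 and -0.21 in the 3 sets. Over the sets Acadl differed by -0.22 ± 0.17 (adjusted p = 0.493, limma) and by -0.05 without KO3, -0.34 without KO2, -0.11 after quantile normalization and -0.09 with array weights.

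Both subunits of the trifunctional protein were lower over the sets without passing. Hadhb, the beta subunit with thiolase activity, read 8.62, 9.75, 9.74, 8.83 and 8.84 in wild-type arrays 1 to 5 and 8.36, 9.35, 8.63, 8.54 and 8.82 in knockout arrays 1 to 5. It was below wild type in every set, with differences of -0.25, -0.76 and -0.15. The difference was -0.41 ± 0.16 (SE, 5 against 5; limma, adjusted p = 0.285), and 12 of 16 exon-level probe sets were below 0 in both exon-level sets. Without KO3 it was -0.25, and with array weights -0.25. Of its 2 gene-level probe sets the brighter, 10474379, supplied the values of replicates 4 and 5 (-0.15), and its number lies apart from those of all but 1 of the exon-level probe sets of Hadhb. The other, 10520467, whose number lies beside them, gave -0.19. Where 10474379 lies in the genome was not checked. Hadha, the alpha subunit that holds the hydratase and long-chain dehydrogenase activities, differed by -0.12, -0.50 and -0.05 in the 3 sets. In replicate 1, however, 14 of its 21 exon-level probe sets were above 0 (median 0.11). The lowest there was probe set 10528930 at -3.64, with 7.72 in WT1 and 4.08 in KO1. Over the sets Hadha was at -0.24 ± 0.17 (adjusted p = 0.476, limma) and at -0.06 without KO3, -0.12 after quantile normalization, -0.13 with the median of probe sets and -0.08 with array weights.

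Etfb, the beta subunit of the electron transfer flavoprotein, was lower in every knockout array, and Etfa, the alpha subunit that forms a dimer with it, was lower by less. Etfb read 8.40, 9.35, 9.64, 7.95 and 8.05 in wild-type arrays 1 to 5 and 7.71, 8.96, 8.42, 7.38 and 7.29 in knockout arrays 1 to 5. The genotypes did not overlap in any set, and the differences of -0.69, -0.80 and -0.66 were alike across sets. Over the sets Etfb was at -0.72, or 0.606 of the wild-type level, beside pooled SDs of 0.15 in wild-type and 0.28 in knockout arrays. The share of all genes called lower was 0.489% (1.99% in the gene-level table alone), and nothing is read from it for a gene chosen on this contrast. Leaving out any 1 array gave -0.80 to -0.63, and quantile normalization within each table gave -0.60. All 6 exon-level probe sets of Etfb were below 0 in both exon-level sets, with medians of -0.59 in replicate 1 and -0.90 in replicates 2 and 3. The latter was -0.59 after quantile normalization. In replicates 2 and 3 both knockout arrays lay below both wild-type arrays for 4 of the 6 probe sets, and for 1 after quantile normalization.

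Etfa read 7.37, 8.73, 8.56, 7.69 and 7.62 in wild-type arrays 1 to 5 and 7.36, 8.63, 8.13, 7.54 and 7.32 in knockout arrays 1 to 5. KO2 lay between the wild-type arrays of its set, and the differences were -0.01, -0.27 and -0.23. Over the sets Etfa was at -0.20 ± 0.13 (SE, 5 against 5; limma, adjusted p = 0.443). It was -0.11 without KO3 and -0.09 after quantile normalization. Of its 9 exon-level probe sets 8 were above 0 in replicate 1 and 8 were below 0 in replicates 2 and 3. Whether Etfb differed from Etfa was not tested.

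Read together, the 8 genes that were not chosen on their values had differences below 0 over the sets, from -0.51 to -0.20, and 0 of 8 were called by limma after adjustment. Of all 12485 tested genes 7933 were below 0, and 0.585% were called. At an unadjusted p under 0.05 there were 4 of 8, each lower (Cpt2, Acadm, Acadvl and Hadhb), beside 12.8% of all genes that were lower at this p. For the same 4 the knockout arrays lay below the wild-type arrays in each of the 3 sets, which was so for 10.8% of all genes. Of the 8, 6 had a difference below 0 in each set, as had 24.8% of all genes. The shares among genes as bright as the 8 were not computed. The median difference of all genes was 0.012 with no filter on dim genes and -0.097 with the filter used. It was -0.18 with a filter at the 50th percentile, which all 8 passed. Hadha and Etfa are among the 6 below 0 in each set, although most of their exon-level probe sets were above 0 in replicate 1 (14 of 21 and 8 of 9). The direction held in each alternative fit except for Cpt1a with array weights, but many of these fits could not change it. A change of block, filter or variance model leaves each difference as it is. For the 4 genes with no overlap in any set, leaving out 1 array could not turn the sign. In the gene-level table alone 0 of 8 were called by limma, with Acadvl at the smallest adjusted p (0.132), where 2.72% of all genes were called. The exon-level table alone gave no call for any of the 12485 genes with limma, and 1019 of them at an unadjusted p under 0.05.

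The size of these differences followed the replicate set. The median of the 8 was -0.07 in replicate 1, -0.61 in replicates 2 and 3, and -0.22 in replicates 4 and 5, beside medians of all tested genes of -0.018, -0.22 and -0.011. After quantile normalization within each table, the replicate 2 and 3 difference was -0.63 for Acadvl, -0.61 for Acadm, -0.54 for Cpt1a, -0.23 for Hadha and -0.04 for Etfa, and the median of all genes there was -0.06. Cpt1c kept 1.64 and Etfb -0.56 in that set. All 10 genes were lower in KO3 than in KO2, by 0.10 (Acadvl) to 1.11 (Acadm), as were 59.7% of all tested genes. Against the wild-type mean of its set, KO2 on its own stood at -0.81 for Acadvl, -0.47 for Cpt1a, -0.40 for Hadhb, -0.28 for Acadm and -0.12 for Cpt2. It stood at -0.02 for Hadha, -0.02 for Etfa and 0.11 for Acadl. Some exon-level probe sets lay far off in KO2. For Acadvl, 10387786 read 6.32 in KO2 against 9.5 and 9.71 in WT2 and WT3, and 10387788 read 7.15 against 9.21 and 9.35. For Hadhb, 10520468 read 5.77 against 9.51 and 9.62, while 10520473 read 13.06 against 11.45 and 11.58. For Hadha, 10528940 read 11.62 against 8.71 and 9.23. These probe sets enter the KO2 values, which were not computed without them.

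Centred on the mean of each set, the levels of the 9 genes other than Cpt1c were positively correlated over the 10 arrays. Pearson's r over their 36 pairs was 0.52 to 0.96 with a median of 0.81, while the 9 pairs with Cpt1c gave -0.79 to -0.19. Acadm and Hadha were the closest pair (0.96), and the head-to-head pair Hadha and Hadhb gave 0.91. These are descriptions only. The centring kept the difference between genotypes, on which Cpt1c and Etfb were chosen, and the deviation of KO3. Both enter each r, so genes that differ alike between genotypes correlate and Cpt1c goes against the others. The r of equally bright gene pairs was not computed. By the same measure the tested genes most like Cpt1c were Nrn1, the neuritin gene (r = 0.96), Tmub2, a transmembrane protein with a ubiquitin-like domain (0.96), and Plxna3, a semaphorin receptor (0.96). Those most like Etfb were Fam169b, Yipf1 and Gstt2, a glutathione transferase (each 0.98). Fam169b, like Etfb, lies on the chromosome of Klf13, 23 places from it among tested genes, on the side away from Etfb.

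Other genes of fatty acid handling were examined in a list of 54, of which 49 were in both tables and 43 were bright enough to be tested. By limma 1 of the 43 fell and none rose, beside 0.585% called among all genes, and nothing is read from a single call. That gene was Hsd17b10, a mitochondrial dehydrogenase that acts on branched short-chain acyl groups and is also part of mitochondrial RNase P. Hsd17b10 differed by -0.41, -1.19 and -0.57 in the 3 sets and by -0.79 ± 0.14 over them (SE, 5 against 5; limma, adjusted p = 0.0386). In the gene-level table alone its adjusted p was 0.0421. The call was kept without KO3 (adjusted p = 0.00539) and ended without any other single array (0.0663 to 0.165), with the median of probe sets (0.0680), with trend and robust variances (0.0664) and with the table as block (0.9998).

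**Figure D3:**
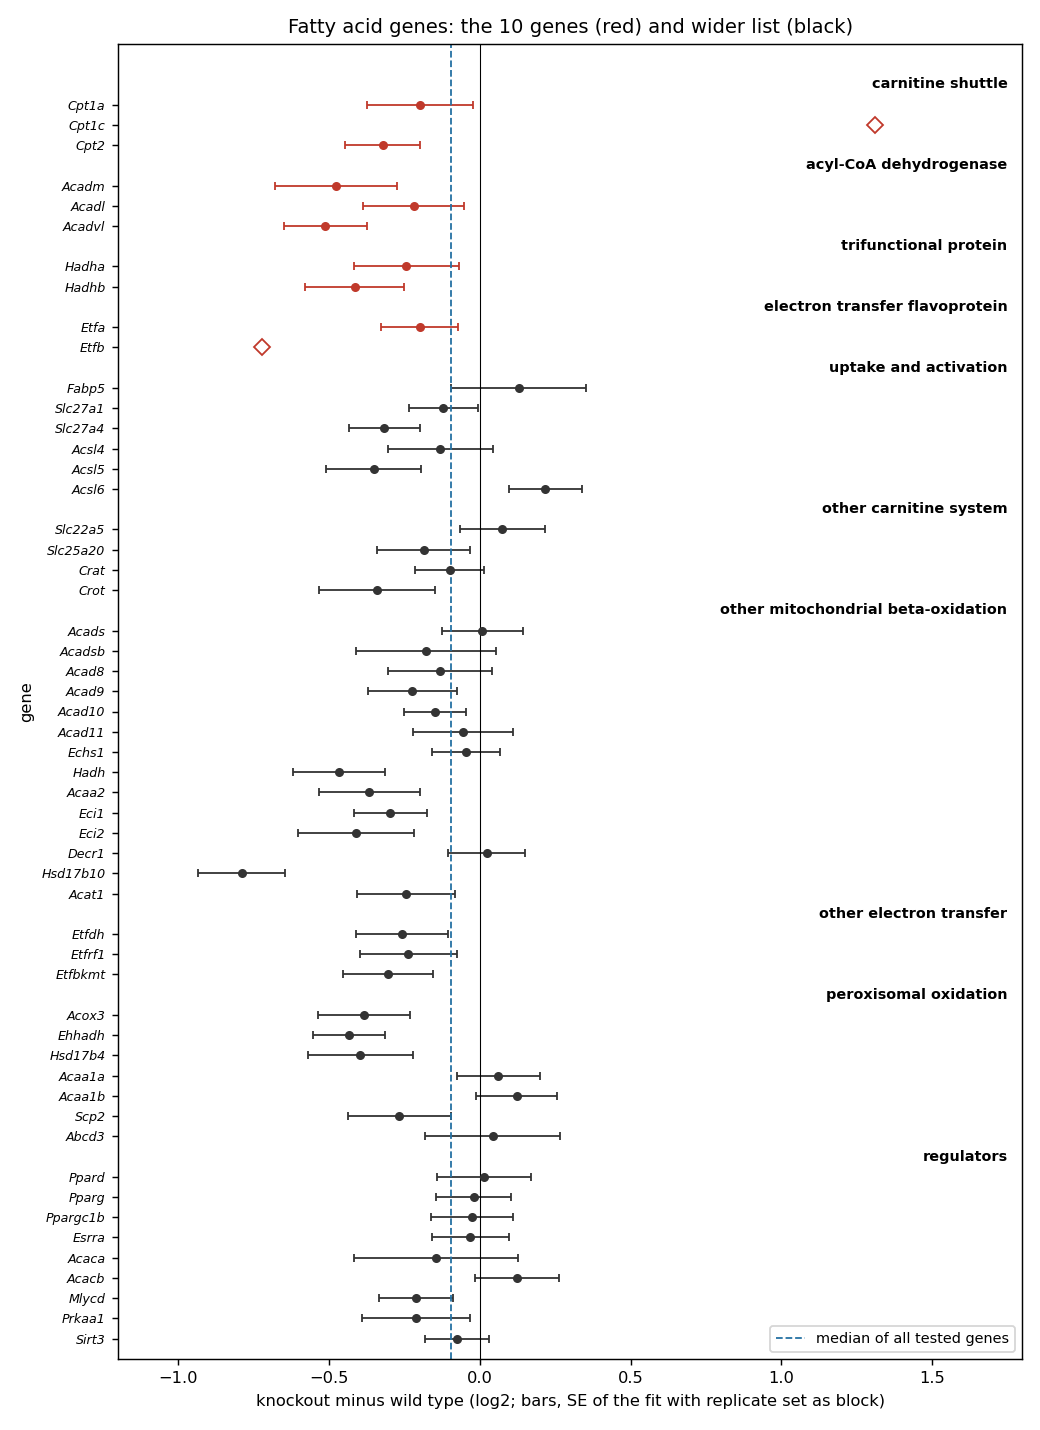
Knockout minus wild type (log2) over the 3 replicate sets for the 10 genes (red) and the 43 tested genes of the wider list (black), by role. Bars are the SE of the fit; Cpt1c and Etfb (open diamonds) carry no bar because they were chosen on this contrast. Hsd17b10 at -0.79 is the lowest of the wider list, and the dashed line is the median of all tested genes, -0.097.

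The groups of the wider list kept near or below 0, as did most tested genes (7933 of 12485 below 0). Among 14 other mitochondrial beta-oxidation genes 12 were below 0 (median -0.20), 1 of them called, and the next by p was Hadh, the short-chain dehydrogenase, at -0.47 (adjusted p = 0.232, limma), named after its value was seen. The 3 other electron transfer genes were at -0.31 to -0.24, with Etfbkmt, the methyltransferase of ETFB, at -0.31 (0.363), or -0.16 without KO3, -0.16 with array weights and -0.20 with the median of probe sets. Of 7 peroxisomal genes 4 were below 0 (median -0.27), and Ehhadh, the peroxisomal bifunctional enzyme, had the smallest p at -0.43 (0.167; 0.0399 with array weights). The median of the 6 genes for uptake and activation was -0.13, and the smallest p was that of Slc27a4, a fatty acid transporter, at -0.32 (0.274). The groups were not lower in every set. By set the medians were -0.04, -0.40 and -0.21 for mitochondrial beta-oxidation and 0.10, -0.50 and -0.20 for electron transfer. They were -0.06, -0.48 and 0.01 for peroxisomal genes and -0.02, -0.33 and -0.09 for uptake and activation.

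The 4 other carnitine genes had a median of -0.14, with Crot, the peroxisomal carnitine transferase, at -0.34 (adjusted p = 0.405, limma), or -0.14 without KO3 and -0.14 with array weights. By set the median of these 4 was 0.02, -0.35 and -0.11. The 9 tested regulators had a median of -0.03. Mlycd, which degrades malonyl-CoA, had the smallest p among them, at -0.21 (0.417; -0.13 with array weights), and Ppara, Ppargc1a and Prkaa2 were too dim to be tested. The median over all 43 was -0.15, with 33 below 0. Over all tested genes the median was -0.097, with 7933 of 12485 below 0. It was 0.012 over all 19048 genes with no filter, and -0.18 over the 8842 genes past a filter at the 50th percentile. The median of all genes thus fell as dim genes were left out, and equally bright genes were not compared. By set the median of the 43 was -0.022, -0.36 and -0.13.

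Cpt1c and Etfb lie on the chromosome of Klf13, chromosome 7, and the other 8 genes on other chromosomes. In the gene order of GRCm38.p6, 128 tested genes lie between Etfb and Klf13, 92 between Cpt1c and Klf13, and 35 between Etfb and Cpt1c. Of the 127 tested genes between Etfb and Klf13 other than Cpt1c, 1 was called higher and 4 lower, or 3.94%, beside 0.585% of all tested genes (0.0961% higher and 0.489% lower). The median difference in the stretch was 0.016. Etfb has Cldnd2 as its nearest tested neighbour, and Nkg7, which encodes a granule membrane protein of cytotoxic cells, as the next. Nkg7 was at -2.20 over the sets, and Cldnd2, a claudin-domain protein, at -0.78 ± 0.20 (SE, 5 against 5; limma, adjusted p = 0.152). Cldnd2 also overlaps the span of Etfb in RefSeq, and what signal each probe set took from which of these genes was not tested.

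On the other side of Etfb, Iglon5, Zfp658 and Zfp719 were at 0.23, -0.07 and -0.43, and Lim2, beyond Nkg7, was at 0.12. Around Cpt1c, Fuz, Ap2a1 and Tsks were at -0.28, 0.02 and 0.09, and Prmt1, Bcl2l12 and Irf3 at -0.14, 0.03 and -0.48. None of these passed (limma).

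**Figure D4:**
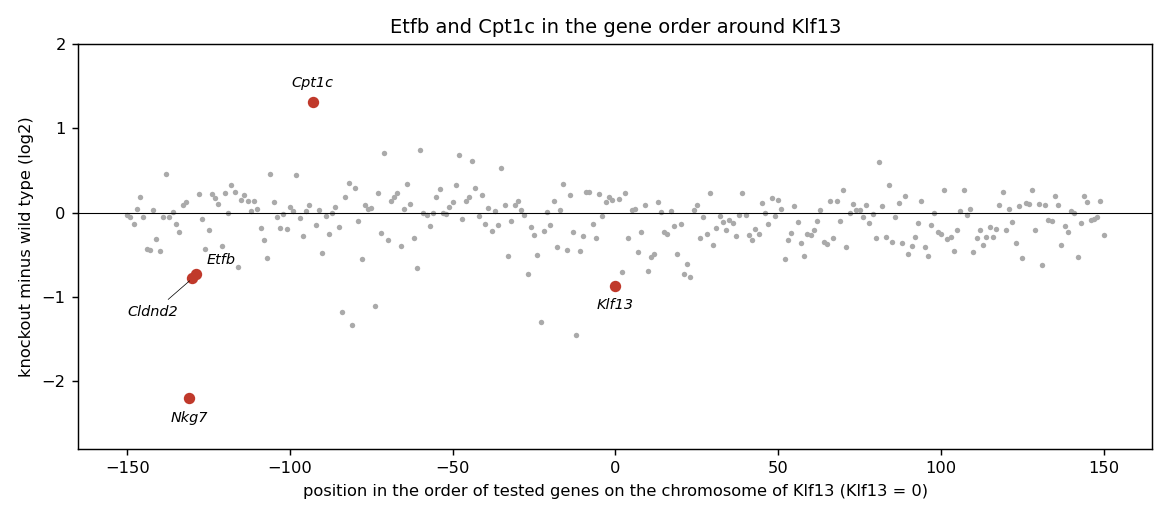
Knockout minus wild type (log2) over the 3 replicate sets for tested genes on the chromosome of Klf13, placed by their order with Klf13 at 0. Cpt1c at 1.31 is the highest point shown, Nkg7 at -2.20 the lowest, and Etfb (-0.72) and Cldnd2 (-0.78) lie beside Nkg7.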

How the data were processed

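The authors deposited log2 signals made with RMA, per the submitters' processing notes (no version, further step or genome build is named there). The exon-level table (241576 probe sets) holds replicates 1 to 3 and the gene-level table (35556) replicates 4 and 5. Array medians were 5.21 and 5.23 for replicate 1, 6.25 to 6.43 for replicates 2 and 3, and 4.18 to 4.30 for replicates 4 and 5. An exon-level array was put in a separate set where its median lay over 0.5 below the table's highest.

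Gene names came from the platform annotation, with 2992 and 29 older symbols updated through RefSeq (GRCm38.p6). Only probe sets that name 1 gene were used. A gene's value was the mean of its exon-level probe sets or its brightest gene-level probe set. Genes at or above the 30th percentile in both tables were tested (12485) with limma 3.58.1 in R 4.3.3 (lmFit, eBayes, 2-sided, Benjamini-Hochberg over all genes, threshold 0.05). The fit was checked on simulated data with independent normal noise of the same size in every array. That check held no deviating array such as KO3. The number of arrays limits the precision.

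The 10 genes, the wider and marker lists, the set as block and the alternatives were chosen with earlier results of these data known. Named were the 10 genes, Klf13, called genes of the wider list or else the gene of smallest p in each group, and the 3 nearest genes by order and by correlation.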

Additional observations from a re-analysis of the deposited data

How the results depend on the processing

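Of the 8 fatty acid oxidation genes that were tested, 0 were called by limma in each of the 20 alternatives, and those other than Cpt1a kept their sign in each. Cpt1a turned to 0.027 with array weights. Cpt1c and Etfb kept their sign in 20 of 20, but nothing is read from this for genes chosen on this contrast. Their genotypes did not overlap in any set, so leaving out 1 array could not turn the sign. A change of block, of filter or to trend and robust variances left each difference as it was, for these genes and for the 8. The count of all genes called, 73, was less stable: it was 4 with the table as block, 23 with the replicate block, 31 with the median of probe sets, 504 with array weights and 12 to 362 without single arrays (12 without KO4, 362 without KO3). Arrays with the same number did not deviate together (correlation of deviations -0.42 for replicates 2 and 3 and -0.24 for 4 and 5), and a crossed replicate block, chosen after seeing the data, gave 53. The gene-level count of 339 became 660 with the replicate block and 517 with trend and robust variances, and ranged from 193 (without KO4) to 529 (without WT5). The exon-level count of 0 became 48 with the replicate block and 0 to 426 without single arrays, the highest without KO3. The wider list's count of 1 was 0 with the table as block, the replicate block, the median of probe sets, or trend and robust variances, 2 with array weights and 0 to 1 without single arrays. With the replicate block Hsd17b10 was no longer called (adjusted p = 0.105). The causes were not tested. Without WT1 or KO1 the set of replicate 1 adds nothing to the difference.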
